A study of Mus musculus with 24 samples.

Results

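Interferon beta (IFN beta) at 10 IU/ml was the lowest dose of that cytokine given to ID8 cells, an established line of mouse ovarian cancer with an origin in the surface epithelium, and it is compared here with untreated cells. The comparison holds 5 of the 21 biological samples of the series on 8 of its 24 arrays: 2 samples treated with IFN beta at 10 IU/ml (replicates 1 and 2, 1 array each) and 3 untreated samples (replicates 1, 2 and 3, 2 arrays each, averaged). These samples were chosen by their titles. The array of replicate 3 of IFN beta at 10 IU/ml carries a note by the submitters that it was left out of their final analysis because interferon-stimulated genes were unusually high on it, so it entered no comparison in these results. Its values are drawn in the plot of IFN beta doses and given separately in the closing observations.

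All cells were of the same line and genotype. They were plated at 150000 per well 24 h before recombinant mouse interferon or the vehicle, PBS, was added, and RNA was taken after 3 h. Besides IFN beta at 10, 100 and 1000 IU/ml and untreated cells, the study gave IFN epsilon, a type I interferon of the female reproductive tract, at the same doses. Biological replicates were made on separate dates and technical replicates of a treatment were pooled, so each sample is a pool from 1 date. Replicate numbers are read here as dates, replicate 1 as the first date and replicate 2 as the second. The labels do not state that a number stands for the same date in every treatment, so every count over dates rests on this reading.

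IFN beta is made by many kinds of cell when they detect a virus. It binds the receptor chains Ifnar1 and Ifnar2, whose kinases Jak1 and Tyk2 phosphorylate STAT proteins such as Stat2, and these join Irf9 in a complex that binds interferon-stimulated response elements in promoters. The genes below such elements include antiviral effectors, sensors of viral RNA, further interferon regulatory factors and the feedback inhibitor Usp18, and at later times or higher doses the antigen presentation machinery.

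The response elements are shown for 4 genes whose values are described below, because the genes share the letters but not the size of the difference from untreated cells. The sequences are RefSeq promoters of GRCm38.p6, from 250 bases before to 50 bases after the gene's start, written on the gene's strand. Capitals mark GAAANNGAAA on either strand, which reads TTTCNNTTTC on the other. Ifit1 lies at chr19:34640639-34640938 on the plus strand, Rsad2 at chr12:26456403-26456702 on the minus strand, Isg15 at chr4:156200769-156201068 on the minus strand and Gbp2 at chr3:142620413-142620712 on the plus strand.
Ifit1: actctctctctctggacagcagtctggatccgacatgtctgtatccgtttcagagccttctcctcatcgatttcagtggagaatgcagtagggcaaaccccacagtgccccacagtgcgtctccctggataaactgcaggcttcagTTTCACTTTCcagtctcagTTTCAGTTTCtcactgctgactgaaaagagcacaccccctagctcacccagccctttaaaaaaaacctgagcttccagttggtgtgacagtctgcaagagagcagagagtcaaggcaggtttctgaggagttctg
Rsad2: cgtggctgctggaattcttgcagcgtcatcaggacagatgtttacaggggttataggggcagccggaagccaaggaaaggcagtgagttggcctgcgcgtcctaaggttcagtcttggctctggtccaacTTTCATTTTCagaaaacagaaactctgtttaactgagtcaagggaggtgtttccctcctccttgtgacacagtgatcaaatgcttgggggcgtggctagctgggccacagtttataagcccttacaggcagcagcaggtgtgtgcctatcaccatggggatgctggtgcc
Isg15: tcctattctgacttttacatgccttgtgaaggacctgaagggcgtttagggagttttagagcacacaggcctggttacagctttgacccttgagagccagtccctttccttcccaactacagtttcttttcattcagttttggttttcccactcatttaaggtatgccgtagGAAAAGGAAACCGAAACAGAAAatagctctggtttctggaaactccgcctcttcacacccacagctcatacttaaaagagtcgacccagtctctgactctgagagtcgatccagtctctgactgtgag
Gbp2: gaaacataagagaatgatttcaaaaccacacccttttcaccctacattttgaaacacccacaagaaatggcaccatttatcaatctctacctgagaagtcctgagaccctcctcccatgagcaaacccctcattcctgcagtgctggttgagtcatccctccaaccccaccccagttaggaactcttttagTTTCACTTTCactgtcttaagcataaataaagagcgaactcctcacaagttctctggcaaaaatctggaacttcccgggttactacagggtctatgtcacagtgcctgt
Ifit1 had 2 matches, 104 and 85 bases before the start. Rsad2 had 1, at 120 bases before it, and Isg15 had 3 that overlap each other, at 78, 72 and 66 bases. Gbp2 had 1, at 59 bases. The letters occurred in 3.44% of all 32851 promoters of that length and in 3.01% of the promoters of genes tested here. Counted per gene, 415 of the 11422 tested genes with a promoter sequence held them (3.63%). They occurred in 25 of the 45 antiviral effector genes with a promoter sequence (55.6%) and in 8 of 9 interferon-inducible GTPase genes (88.9%). Among genes with larger differences described below, no match lay in the windows of Cmpk2, Ifi44, Irf7 and Irf9, and those of Usp18, Rtp4 and Oas2 were not examined. A match is a run of letters and was not tested as a binding site.

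Values are log2 of the scanner's processed intensity minus the 75th percentile of the same array, so a level of 0 is that array's 75th percentile, and a difference of 1 is 2-fold. That percentile lay at 955.2 and 1074 intensity units on the IFN beta arrays. It was 985.9 to 1103 on the arrays of untreated replicates 1 and 2, and 778.6 and 791.3 on those of untreated replicate 3. Between 50.2% and 55.8% of probe spots were well above background on these 8 arrays. All 13 ovarian epithelial and mesenchymal markers that passed the filter on dim probes, of 15 listed, were well above background on all 8 arrays. Of the leukocyte markers 5 of 13 passed and of the endothelial, fibroblast and adipocyte markers 7 of 11. Their summed linear levels, relative to each array's 75th percentile, were 3.81 and 4.5 with IFN beta against 3.94 to 4.31 in untreated samples for leukocyte genes. For the other cell types they were 139 and 145 with IFN beta against 115 to 144 in untreated samples.

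No gene passed the test between IFN beta at 10 IU/ml and untreated cells. Of 14426 genes tested, limma with the replicate number as a block called 0 higher and 0 lower (0% each way) at a Benjamini-Hochberg adjusted p under 0.05, and the lowest adjusted p was 1.00. At an unadjusted p under 0.05 there were 252 higher genes (1.75%) and 176 lower genes (1.22%), together 428, where 5% of all tests would be 721. Without the block limma also called 0 genes, with 47 at an unadjusted p under 0.05. The median unadjusted 95% interval of a gene's difference reached 0.28 log2 units to either side with the block and 0.51 without it. With the block it ran from 0.20 for Ifnar2 to 2.04 for Cd274 in the interferon-related panel described below. For Ifit1 it was 1.05. Differences within a gene's own interval were not detectable with 2 treated samples, and larger ones could fail after adjustment. Usp18 differed by 1.03, beyond its interval of 0.73 to either side, and was not called. Differences named below are therefore values of these samples and not calls.

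Most antiviral effectors lay higher with IFN beta on both dates, none by an amount that passed the test. The list covers interferon-inducible genes counted here as antiviral, and the products of some of them bind, modify or degrade viral RNA and proteins. Of 59 listed, 53 passed the filter, and 46 of them (86.8%) were higher than the untreated sample of the same date on both dates, against 29.2% of all genes tested. Their median difference was 0.33 on the first date and 0.43 on the second, where the median of all genes was 0.02 on each. In 14 of the 53, both IFN beta samples lay above all 3 untreated samples, against 4.69% of all genes, and in 0 both lay below, against 3.49%. In the fit across all groups the list's median was 0.45, with 7 members higher and 0 lower at an unadjusted p under 0.05 and 0 called. That median was 0.29 without the block and 0.24 without IFN beta replicate 1. In RNA from whole cultures, fewer responding cells and less RNA per cell cannot be told apart.

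**Figure D1:**
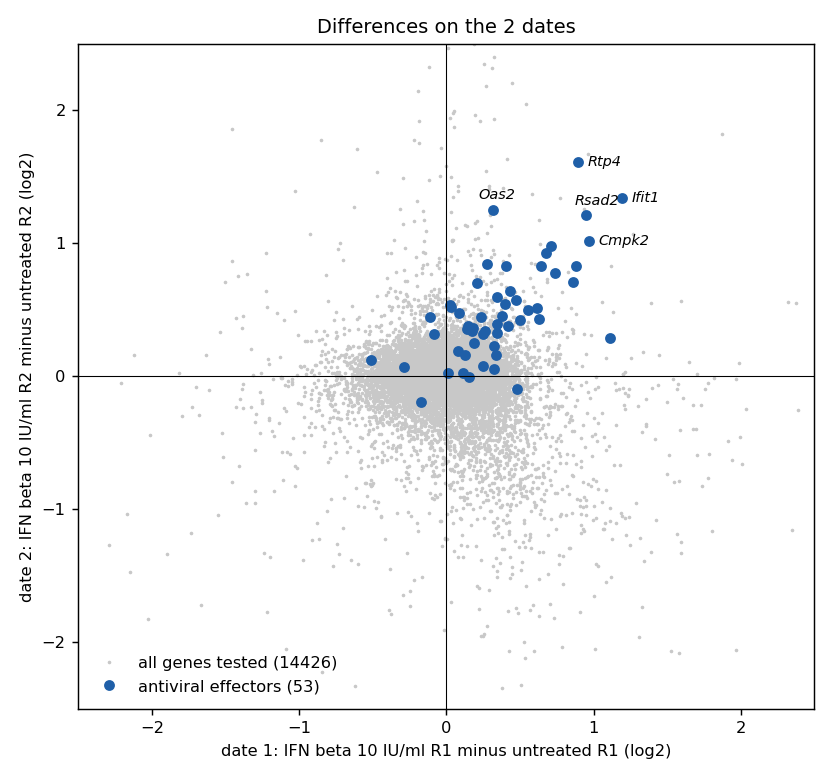
Log2 difference of IFN beta 10 IU/ml from untreated cells on the first date (x axis) and on the second (y axis), 1 point a gene, with grey points for all genes tested and blue points for the 53 antiviral effectors. Of the blue points 46 lie above 0 on both axes, and 20 genes fall outside the plotted range of 2.5.

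Ifit1, Rtp4, Rsad2 and Cmpk2 had the highest mean differences of the list over both dates. Ifit1, whose protein binds viral RNA that lacks host cap methylation, was at -1.19 and -1.17 with IFN beta, against -2.38, -2.50 and -0.49 in untreated samples. The treated samples of both dates lay above the untreated samples of the same date, by 1.20 and 1.34, and below the third untreated sample, so the groups overlapped. The fitted difference was 1.05 ± 0.48 (SE), with an unadjusted limma p of 0.0491 and an adjusted p of 1.00.

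Rsad2 encodes viperin, an enzyme that makes a chain-terminating nucleotide, and Cmpk2, its neighbour, encodes a nucleotide kinase. Rsad2 was at -3.33 and -2.98 with IFN beta, against -4.28, -4.19 and -2.86 in untreated samples. Cmpk2 was at -2.27 and -2.68 with IFN beta, against -3.24, -3.70 and -2.72 in untreated samples. Both IFN beta samples lay above all 3 untreated ones for Cmpk2, replicate 2 only just, and below untreated replicate 3 for Rsad2. The fitted differences were 1.07 ± 0.58 (SE) for Cmpk2, with an unadjusted limma p of 0.0901, and 1.17 ± 0.80 for Rsad2, with an unadjusted limma p of 0.169.

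Isg15, the ubiquitin-like modifier that is attached to proteins during infection, was at 4.00 and 3.42 with IFN beta, against 3.36, 2.59 and 4.37 in untreated samples. Untreated replicate 3 was the highest of the 5. The differences within a date were 0.64 and 0.83. Usp18, the protease that removes Isg15 from proteins and that blocks the receptor, was at 0.48 and 0.18 with IFN beta, against -0.45, -1.08 and 0.20 in untreated samples. Its fitted difference of 1.03 ± 0.33 (SE) had an unadjusted limma p of 0.00968, and IFN beta replicate 2 fell just under untreated replicate 3. Usp18 was the highest of the 21 tested genes for negative feedback of interferon signalling. Of these 21 genes, 9 (42.9%) were higher on both dates, against 29.2% of all genes. Socs1, which inhibits the Jak kinases, differed by 0.05 and 0.14 on the 2 dates.

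**Figure D2:**
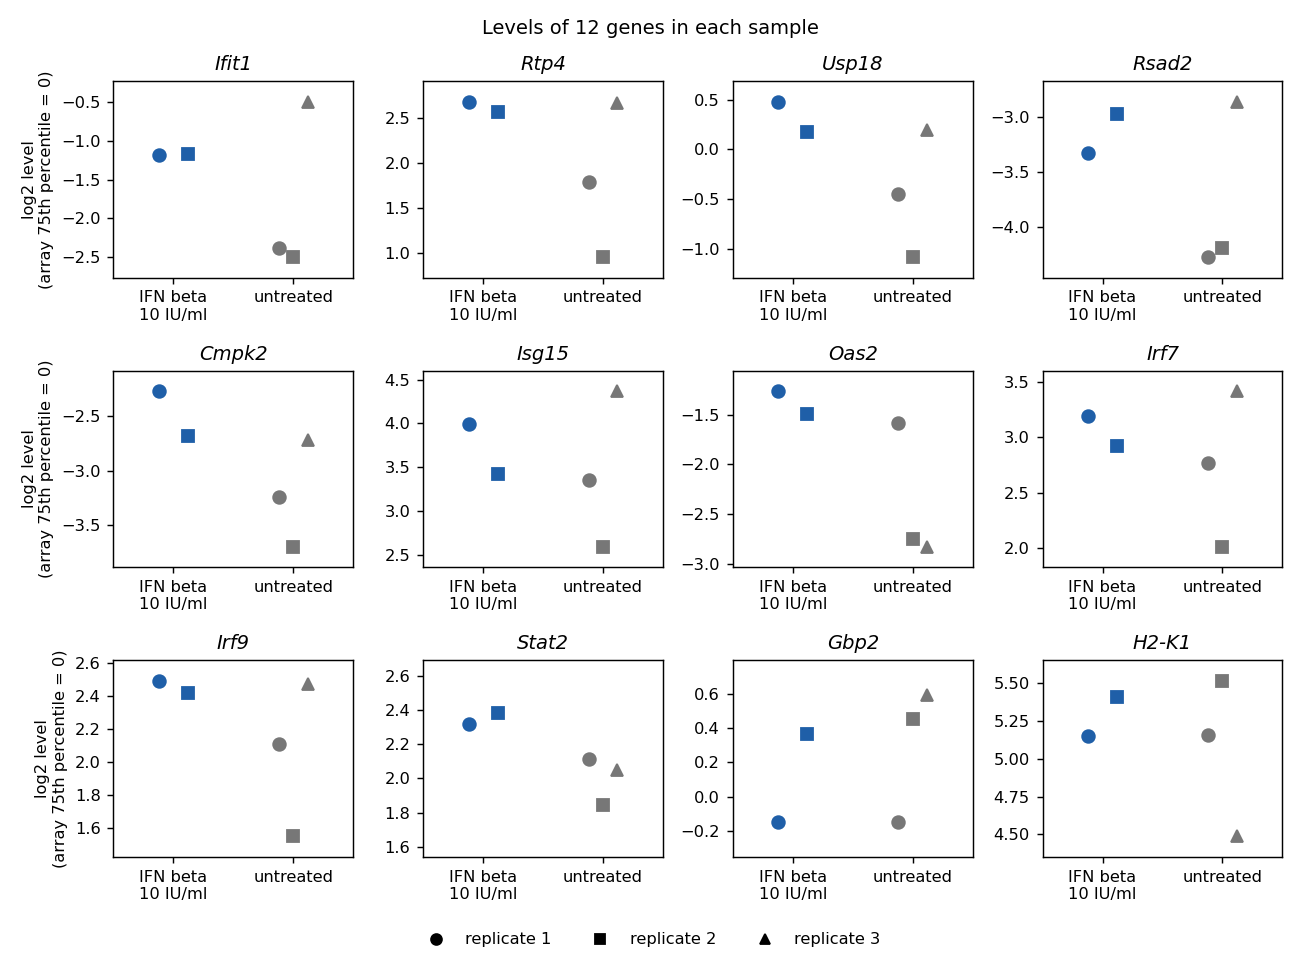
Log2 level relative to each array's 75th percentile (y axis, with a range of its own in each panel) of 12 genes in the IFN beta 10 IU/ml samples (blue) and the untreated samples (grey), with the replicate number given by the symbol. Both blue points lie above the grey points of replicates 1 and 2 in Ifit1, Rtp4, Usp18, Rsad2 and Cmpk2, among others, and untreated replicate 3 lies above at least 1 blue point in every panel except those of Cmpk2, Oas2, Stat2 and H2-K1.

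Rtp4, a chaperone of receptor proteins that also restrains viruses, was at 2.68 and 2.57 with IFN beta, against 1.79, 0.95 and 2.67 in untreated samples. Its differences were 0.90 and 1.61 and its fitted difference 1.05 ± 0.33 (SE), with an unadjusted limma p of 0.00727. Untreated replicate 3 lay between the 2 IFN beta samples. Ifi44, a cytoplasmic protein with antiviral action, was at -1.75 and -2.36 with IFN beta, against -2.61, -3.07 and -2.06 in untreated samples, so it overlapped in the same way.

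The oligoadenylate synthetases, which sense double-stranded RNA and make a second messenger of the antiviral response, were among the members above all untreated samples. Oas2 was at -1.27 and -1.50 with IFN beta, against -1.59, -2.75 and -2.83 in untreated samples, and its fitted difference of 0.85 ± 0.37 (SE) had an unadjusted limma p of 0.0387. Oas3 was at -3.78 in both IFN beta samples, against -4.46, -4.71 and -4.15 in untreated samples. Both groups were apart in these genes, and the difference in Oas2 came mainly from the second date, at 1.25 against 0.32 on the first. The other of the 2 Oas2 probes had a mean difference of -0.09. Oas1a, Oas1g and Oasl1 were also above all untreated samples, and Oasl2 was not, although it differed by 0.34 and 0.32. Oas1a and Oas1g are near-identical copies whose probes may share signal.

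The other antiviral members above all untreated samples were Apol9a, Apol9b, Cmpk2, Ddx60, Parp14, Phf11d, Slfn8, Trim30d and Trim34a, named here after their values were seen. Slfn8 had 1 of 2 probes with the opposite sign. Apol9a and Apol9b are near-identical, as are Trim30a and Trim30d. Ifit2, which binds RNA like Ifit1, differed by 0.12 and 0.03, and Ifit3, its partner, by 0.88 and 0.83. The 7 members that were not higher on both dates included Apobec3, Ifi27l2a, Ifitm1, Slfn5, Tor3a and Trim30a. Apobec3, a cytidine deaminase, was the 1 member lower on both dates, by -0.17 and -0.19. Slfn5 and Ifit1bl1 were not well above background on any of the 8 arrays and passed the filter through other groups. Ifit1bl1 is nonetheless counted among the members higher on both dates.

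The untreated samples also differed from each other in these genes, and the part of this in the values above was not tested. The list's median level was -0.05 and -0.12 on the arrays of IFN beta replicates 1 and 2. On untreated arrays it was -0.33 and -0.27 for replicate 1, -0.21 and -0.37 for replicate 2, and -0.04 and 0.07 for replicate 3. Untreated replicate 3 exceeded untreated replicate 1 in 34 of 53 members, by a median of 0.20, and untreated replicate 2 in 39, by 0.48. Set against untreated replicate 3, IFN beta replicate 1 was higher in 32 of 53 members and replicate 2 in 26, with medians of 0.18 and -0.03. The list's higher level on both dates thus holds within dates 1 and 2, and the distance between untreated dates was of the same size.

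The spread between repeat arrays was also of this order over all genes. The standard deviation over genes of the difference between the 2 arrays of an untreated sample was 0.36 to 0.41, against 0.32 and 0.31 for IFN beta minus untreated on the 2 dates, where the untreated value is a mean of 2 arrays. Over the antiviral members alone, the median difference between the first and second array of an untreated sample was -0.12, 0.04 and 0.01 for replicates 1, 2 and 3, smaller than the 0.33 and 0.43 between treated and untreated samples. The date differences of all 14424 genes measured on both dates had a Pearson correlation of -0.11 over genes, and those of the 53 antiviral members 0.65. Genes are not independent replicates, and the genes of a date share 3 arrays.

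Slides separated all arrays compared within a date. No IFN beta array shared a slide with an untreated array of its own replicate number. Each difference within a date is therefore also a difference between slides, and the 2 cannot be told apart. IFN beta replicate 1 shared its slide with both arrays of untreated replicate 2, and there 49 of 53 antiviral members were higher, by a median of 0.67. IFN beta replicate 2 shared its slide with 1 array each of untreated replicates 1 and 3, and there 30 of 53 were higher, by 0.05. Both of these sets mix dates. With slide and replicate both as blocks, and arrays not averaged, the list's fitted median was 0.42 and limma called 0 genes.

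**Figure D3:**
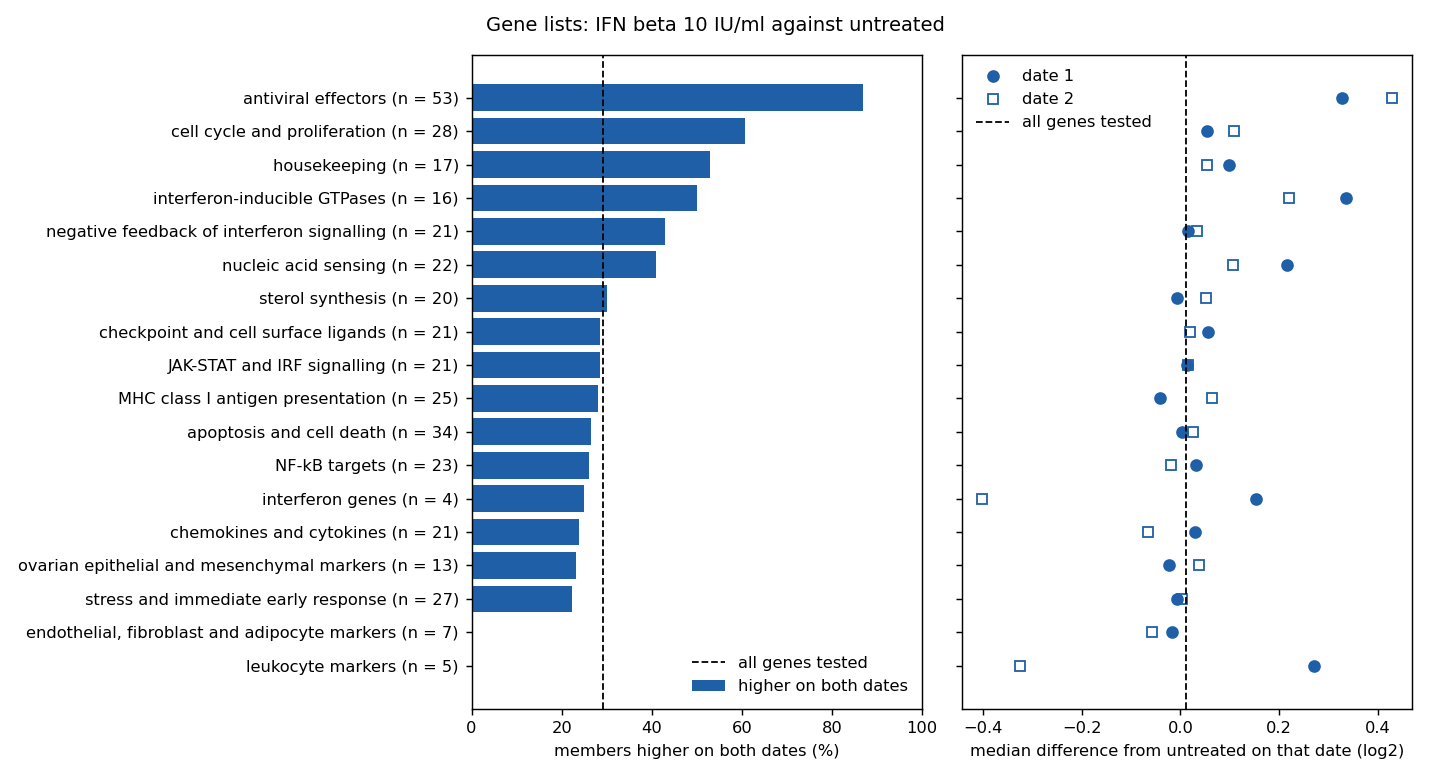
Share of each gene list's tested members that were higher with IFN beta 10 IU/ml on both dates (left, bars in percent) and the list's median log2 difference from untreated cells on each date (right, filled circles for the first date and open squares for the second), with dashed lines for all genes tested. Antiviral effectors stand at 86.8% against 29.2% of all genes, and their medians of 0.33 and 0.43 lie farthest to the right on the second date.

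The interferon-inducible GTPases, which attack the membranes around intracellular pathogens, had a smaller share of members higher on both dates than the antiviral effectors. Of 16 tested, 8 (50%) were higher on both dates, against 29.2% of all genes, with medians of 0.33 and 0.22. That share was below those of the housekeeping (52.9%) and cell cycle (60.7%) lists, whose medians were 0.05 to 0.11. In 4 of the 16, both IFN beta samples lay above all untreated samples, against 4.69% of all genes. Irgm2 was at 1.63 and 1.70 with IFN beta, against 1.00, 0.70 and 1.60 in untreated samples, with a fitted difference of 0.82 ± 0.34 (SE) and an unadjusted limma p of 0.0312. Igtp, Gbp7 and Gvin1 were the other 3, the last of them named after its values were seen. Igtp differed by 0.47 and 0.63. Gbp2, whose promoter holds the same letters as that of Ifit1, was at -0.15 and 0.37 with IFN beta, against -0.15, 0.45 and 0.59 in untreated samples. It did not lie apart on either date, with differences of 0.00 and -0.08, although the fit gave 0.22 ± 0.50 (SE). Iigp1, at 1.82 and -0.01, was not well above background on any of the 8 arrays.

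Of the sensors of nucleic acids, 9 of 22 tested (40.9%) were higher on both dates, against 29.2% of all genes, with medians of 0.22 and 0.11. The RNA helicases of the RIG-I family were among them. Ddx58, which encodes RIG-I, was at 2.16 and 2.20 with IFN beta, against 1.97, 1.67 and 2.38 in untreated samples. Dhx58, its relative LGP2, differed by 0.40 and 0.59, and Ifih1, which encodes MDA5, by 0.26 and 0.34. Zbp1, a sensor of left-handed nucleic acid, differed by 0.41 and 0.68, with levels of -2.34 and -3.48 with IFN beta against -2.75, -4.15 and -2.63 in untreated samples. In Zbp1 and in the helicases the untreated samples overlapped the treated ones. Mavs, the adaptor below the RNA helicases, differed by -0.31 and -0.01.

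Among the signalling genes Irf9, Irf7 and Stat2 had the largest mean differences of those higher on both dates. Of 21 tested, 6 (28.6%) were higher on both dates, close to the 29.2% of all genes. Irf9, the DNA-binding subunit of the complex with Stat2, was at 2.49 and 2.42 with IFN beta, against 2.11, 1.55 and 2.47 in untreated samples, and its fitted difference of 0.52 ± 0.17 (SE) had an unadjusted limma p of 0.00943. Irf7, which amplifies interferon production, was at 3.19 and 2.92 with IFN beta, against 2.76, 2.01 and 3.41 in untreated samples, with a fitted difference of 0.56 ± 0.26 (SE) and an unadjusted limma p of 0.0498. In both genes untreated replicate 3 lay at or above an IFN beta sample.

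Stat2 was at 2.32 and 2.39 with IFN beta, against 2.12, 1.85 and 2.05 in untreated samples, and its groups did not overlap, but the other of its 2 probes had a mean difference of -0.07. Ifnar1 differed by 0.19 on each date and lay above all untreated samples, and Ifnar2 differed by -0.04 and 0.09. Jak1 and Tyk2 differed by 0.14 and -0.46, and by -0.05 and -0.10. Of the 3 probes of Ifnar1, 2 were higher on average over the dates and 1 was lower.

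Antigen presentation genes were higher on both dates at about the share of all genes. Of 25 tested, 7 (28.0%) were higher on both dates, and the list's medians were -0.04 and 0.06. Tap1, a subunit of the peptide transporter, was at -0.27 and -0.21 with IFN beta, against -0.53, -0.44 and -0.64 in untreated samples, so its groups did not overlap. Its fitted difference was 0.48 ± 0.34 (SE), with an unadjusted limma p of 0.178. H2-K1, a classical class I heavy chain, was at 5.15 and 5.41 with IFN beta, against 5.16, 5.51 and 4.49 in untreated samples. Its sequence is shared with other H2 genes, and 1 sample of another group had no value for it. B2m, the light chain, differed by 0.28 and 0.04, and Nlrc5, the transactivator of class I genes, by 0.23 and 0.04, with 1 of its 2 probes lower. The immunoproteasome subunits Psmb8 and Psmb10 differed by -0.07 and 0.22, and by 0.18 and 0.16.

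Chemokines, surface ligands and death genes lay near the background as lists. Higher on both dates were 5 of 21 chemokine and cytokine genes (23.8%), 6 of 21 checkpoint and surface ligands (28.6%) and 9 of 34 apoptosis genes (26.5%). Cxcl10, which attracts T cells, was at 2.13 and 1.32 with IFN beta, against 1.54, 0.83 and 2.30 in untreated samples, and its differences were 0.59 and 0.49. Ccl5 differed by -0.08 and 0.30. Cd274, which encodes the ligand PD-L1, was at -2.92 and -3.50 with IFN beta, against -3.28, -3.44 and -3.25 in untreated samples, so it was higher on 1 date only. Xaf1, an antagonist of the apoptosis inhibitor Xiap, differed by 0.71 and 0.98. Tnfsf10, which encodes TRAIL, was not well above background on any of the 8 arrays.

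Lists with no direct link to interferon give the scale of shifts that touch many genes. Higher on both dates were 17 of 28 cell cycle genes (60.7%) and 9 of 17 housekeeping genes (52.9%), with list medians of 0.05 to 0.11. With other scalings of the arrays these counts were 9 to 17 and 5 to 9, and the first-date median of the cell cycle list ran from -0.03 to 0.05 and the second-date median from 0.05 to 0.21. The antiviral count was 43 to 46 with the same scalings, with medians of 0.26 to 0.33 on the first date and 0.35 to 0.53 on the second. Subtracting the array median in place of the 75th percentile moved the median of all genes on the second date to 0.12, and on the first to -0.05. Of the other lists, 6 of 20 sterol synthesis genes (30.0%), 6 of 23 NF-kB targets (26.1%), 6 of 27 stress and immediate early genes (22.2%) and 3 of 13 ovarian markers (23.1%) were higher on both dates. The lists of leukocyte genes and of endothelial, fibroblast and adipocyte genes had 0 such members.

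**Figure D4:**
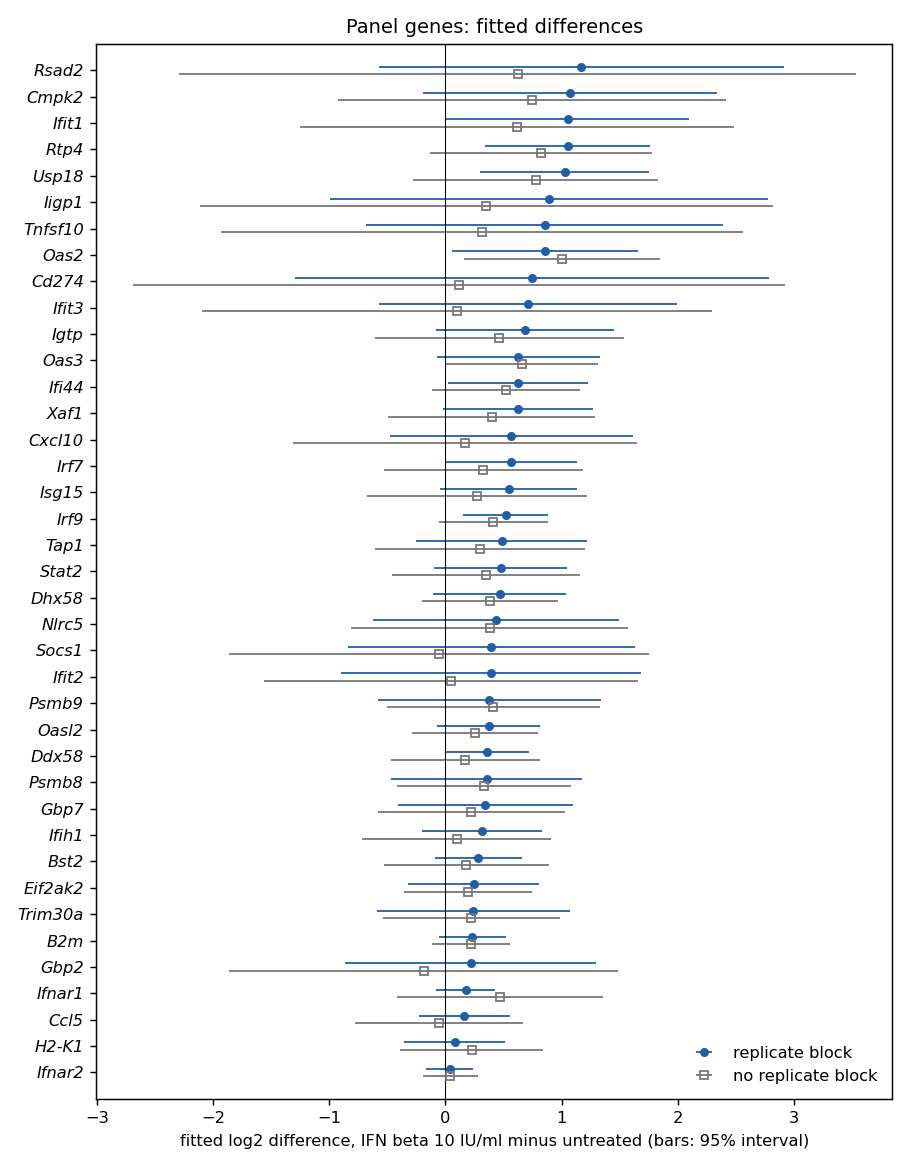
Fitted log2 difference, IFN beta 10 IU/ml minus untreated, of 39 of the 40 panel genes with its 95% interval, with the replicate number as a block (blue circles) and without it (grey squares). All 39 blue points, from a fit whose block is estimated from all 7 groups, lie above 0. The intervals without the block include 0 in all genes except Oas2 and Oas3.

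In the panel of 40 interferon-related genes, all passed the filter and 30 were higher on both dates. All 40 fitted differences with the block were above 0, where 7951 of 14426 genes were. With only these 2 groups and the block, 38 of the 40 kept this sign and 2, Gbp2 and H2-K1, were reversed. The count of 40 thus rests in part on the other groups in the fit. The fitted value can differ from the mean of the 2 dates' own differences, because the block is estimated from all 7 groups: for Gbp2 the fit gave 0.22 and the 2 dates 0.00 and -0.08.

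The genes with the largest differences among those that met a rule with a limit on p were partly interferon genes. Among genes well above background on all 8 arrays, with the same sign on both dates and an unadjusted limma p under 0.05, there were 232 higher and 147 lower genes. The 10 with the highest mean difference were Csnk1a1, Ifi44, Ifit1, Irgm2, Mdn1, Npas3, Oas2, Rtp4, Tbc1d31 and Usp18, of which 6 are interferon-inducible genes of the lists. Csnk1a1, a casein kinase, was at 4.51 and 4.47 with IFN beta, against 4.18, 2.54 and 4.47 in untreated samples, so its difference lay in untreated replicate 2, and 1 of its 3 probes had the opposite sign. Npas3, a transcription factor of neurons, was at -4.32 and -2.88 with IFN beta, against -4.73, -4.52 and -4.26 in untreated samples. The high value was IFN beta replicate 2 alone.

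The 10 genes with the lowest mean difference by the same rule were Alox12b, Dmpk, Fabp3, Hsd17b14, Inha, Lmtk3, Ndrg2, Nrgn, Ppm1j and Stxbp4. None belongs to an interferon list. Ppm1j, a protein phosphatase, was at -3.84 and -3.61 with IFN beta, against -3.34, -2.79 and -3.73 in untreated samples. Inha, the inhibin alpha subunit, was at -0.36 and 0.61 with IFN beta, against 0.42, 0.83 and -0.13 in untreated samples. Both overlapped. Their fitted differences were -0.51 ± 0.18 and -0.47 ± 0.17 (SE), and the adjusted limma p of each was 1.00. At least 2-fold on both dates were 3 higher and 13 lower genes, and Ifit1 was the only one of the 16 that was well above background on all 8 arrays.

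The next doses of IFN beta show where the same genes stood when the cytokine was raised. Usp18 was at -0.45, -1.08 and 0.20 in untreated samples, 0.48 and 0.18 at 10 IU/ml, 2.29 and 3.14 at 100 IU/ml, and 4.25, 4.98 and 5.63 at 1000 IU/ml. Cxcl10 was at 1.54, 0.83 and 2.30 in untreated samples, 2.13 and 1.32 at 10 IU/ml, 2.55 and 2.64 at 100 IU/ml, and 5.35, 6.39 and 6.89 at 1000 IU/ml. Each gene overlapped untreated cells at 10 IU/ml and not at 100 IU/ml. Gbp2 was at 0.71 and 1.06 at 100 IU/ml, above its untreated range of -0.15 to 0.59.

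Against the same untreated samples, limma called 41 genes higher (0.284%) at 100 IU/ml and 393 (2.72%) at 1000 IU/ml, and the antiviral list had 0, 21 and 50 called members at 10, 100 and 1000 IU/ml. Without the block the 41 were 16 and the 393 were 223. The list's fitted medians were 0.45, 1.50 and 3.13. These 3 comparisons share their controls, so the values are set side by side only. Between 10 and 100 IU/ml themselves limma called 0 genes (0%) with or without the block, with 537 and 133 at an unadjusted p under 0.05. The lowest adjusted p was 0.117, for Usp18 among others, whose fitted difference (100 minus 10 IU/ml) was 2.38 ± 0.36 (SE). Without untreated replicate 2 this comparison called 8 genes, all higher at 100 IU/ml.

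**Figure D5:**
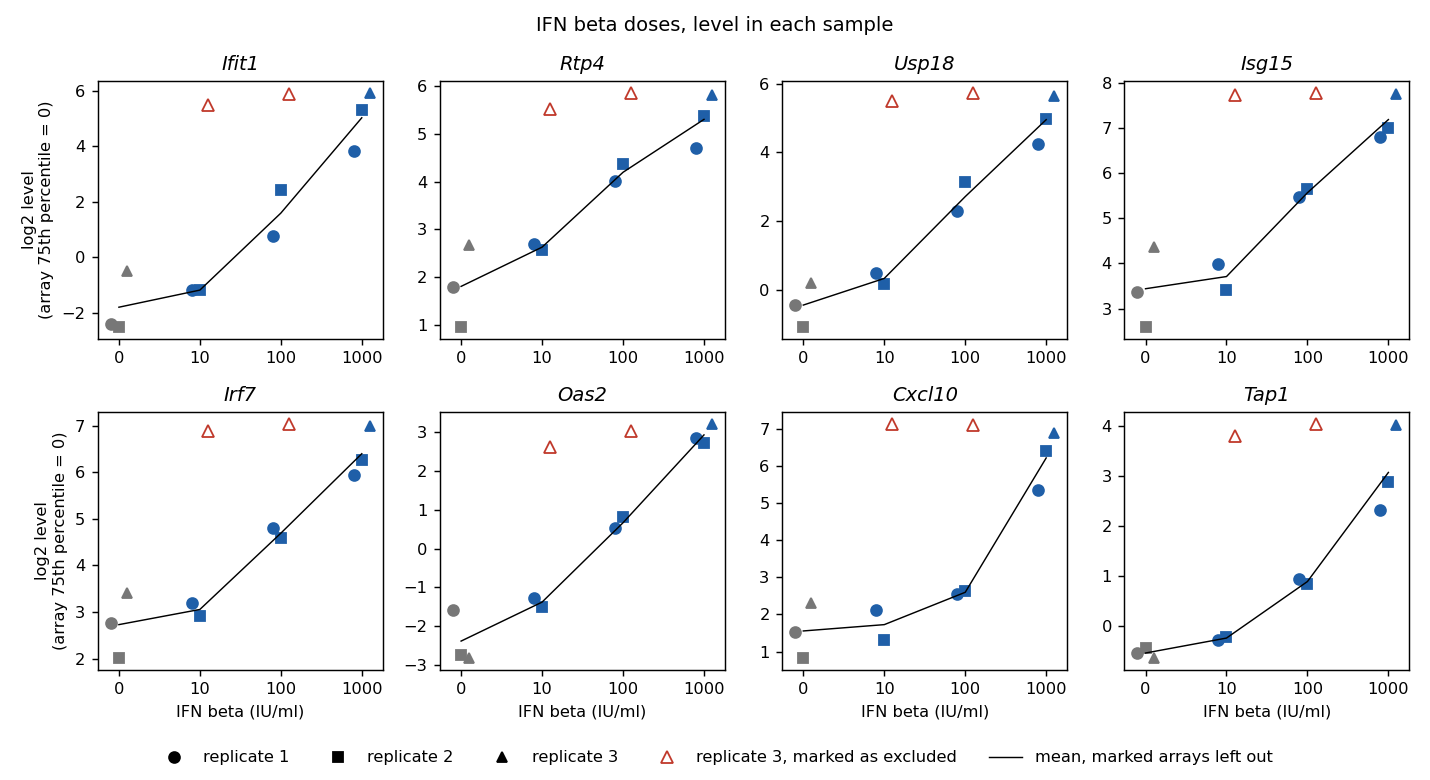
Log2 level of 8 genes relative to each array's 75th percentile (y axis, with a range of its own in each panel) at 0, 10, 100 and 1000 IU/ml IFN beta (x axis, evenly spaced steps), with a symbol for each sample and a line through the means. Red open triangles are the arrays that the submitters left out, and at 10 IU/ml they lie near the 1000 IU/ml samples.

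IFN epsilon at the same dose gave a comparison without untreated samples as its control. With IFN beta at 10 IU/ml as against IFN epsilon at 10 IU/ml, limma called 0 genes higher and 17 lower (0.118%), with 14 lower without the block. They included 11 of the 53 antiviral effectors. The 17 were AW011738, Apol9a, Apol9b, Ddx58, Dhx58, Ifi44, Irf7, Isg15, Oas2, Oas3, Oasl2, Phf11d, Trim12c, Trim30a, Trim30d, Trim34a and Usp18, some of them named after their values were seen. Usp18 was at 0.48 and 0.18 with IFN beta, against 2.30, 3.25 and 3.63 with IFN epsilon, and fell by 2.48 ± 0.33 on the log2 scale (SE), with an adjusted limma p of 0.0188. Irf7 was at 3.19 and 2.92 with IFN beta, against 4.61, 4.94 and 5.79 with IFN epsilon, and fell by 1.82 ± 0.26 (SE), with an adjusted limma p of 0.0202. The groups lay far apart in both genes.

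Ifit1 was at -1.19 and -1.17 with IFN beta, against 0.61, 2.35 and 3.21 with IFN epsilon, with an adjusted limma p of 0.0569. It did not pass the test, although its groups did not overlap. Without IFN beta replicate 1 this comparison called 0 genes, and without IFN beta replicate 2 it called 9, of which 0 were among the 17. Without untreated replicate 3, which enters it only through the block and the spread, it called 11. It also called 0 genes when only the samples of IFN beta and IFN epsilon at 10 IU/ml were fitted, with or without the block, with 299 and 158 genes at an unadjusted limma p under 0.05.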

How the data were processed

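The values come from single-colour Agilent arrays. The deposited scanner files hold 62976 spots per array. Per the file headers, Agilent Feature Extraction (11.0.1.1) had subtracted the background from each intensity, with no scaling across arrays. The authors also deposited log2 values per probe, and the submitters' processing notes list limma 3.42.0 and R 3.6.1. These log2 columns followed their own array's log2 signal with a correlation of 0.989 to 0.995, and their background treatment is not given in the sources used here.

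Control and outlier spots were left out, 0 spots were saturated, spots of a probe were averaged, and log2 intensity minus the array's 75th percentile was used. Of 56605 probes, 32994 were named through RefSeq accessions (GRCm38.p6), for 22911 genes. Unnamed probes, which leave out Mx1 among others, were not used. Probes had to be well above background in 2 or more samples of any 1 group, and each gene was read from its brightest kept probe by mean. That mean ran over all samples of the fit, the higher interferon doses included, so it can favour probes that rise with interferon.

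The test (lmFit with eBayes of limma 3.58.1, R 4.3.3, two-sided, 10 residual degrees of freedom) ran over 19 samples of 7 groups. Replicate numbers entered as a block, since the design text puts biological replicates on separate dates. Deviations from group means correlated at a median of 0.473 (-0.062 to 0.766) over 52 same-number pairs and at -0.209 (-0.612 to 0.282) over 102 other pairs. For IFN beta at 10 IU/ml and untreated samples they correlated at 0.212 for replicate 1 and 0.3 for replicate 2. Deviations from a group's mean sum to 0 in that group, so the negative values of other pairs are not independent of the same-number values.

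The members, the 18 gene lists, the panel of 40 genes and the tests were chosen with earlier results of these data known. Genes were named if in the panel, among the 10 highest or 10 lowest mean differences over the dates (well above background on all 8 arrays, the same sign on both dates, unadjusted p under 0.05), or among the top 3 of an interferon list higher on both dates. Other named genes give the range of a list or were picked after their values were seen. Alternatives covered the block, scaling, background correction, deposited log2 values, filter, probe choice, samples fitted, slide and each replicate left out. The scripts were tested on simulated data. Some members of the lists and the panel are not reported here by name. Other packages were data.table (1.17.8), statmod (1.5.0) and, for plots, matplotlib 3.10.9 in Python 3.11.15, numpy 2.4.6 and pandas 2.3.3.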

Additional observations from a re-analysis of the deposited data

Results flagged for a closer look

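The array of IFN beta at 10 IU/ml that the submitters left out, replicate 3, lay above every untreated array by at least 1 log2 unit in the median level of 4 of the 10 interferon-related lists. Set against untreated replicate 3, its median difference was 3.22 for the 53 antiviral effectors, 4.46 for the 16 interferon-inducible GTPases, 0.97 for the 22 nucleic acid sensing genes and 0.60 for the 21 checkpoint and cell surface ligands. Of the other 6 lists, the median difference was 1.60 for antigen presentation, 0.45 for chemokines and cytokines, 0.44 for signalling genes, 0.25 for interferon genes, 0.15 for apoptosis genes and 0 for negative feedback, and the median level of the chemokine list (0.49) and of the interferon genes (-6.61) lay below the highest untreated array (0.70 and -5.29). The median level of the antiviral list was 3.98 on it, against -0.37 to 0.07 on the 6 untreated arrays.

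On the same array 51 of 53 antiviral effectors, 16 of 16 GTPases and 19 of 25 antigen presentation genes were at least 2-fold above untreated replicate 3, as were 597 of all 14425 genes measured on both (4.14%). The counts were 2, 1 and 0 for IFN beta replicate 1 against untreated replicate 1, and 5, 0 and 0 for IFN beta replicate 2 against untreated replicate 2, where 127 (0.88%) and 87 (0.603%) of all genes were. Ifit1 was at 5.48, Usp18 at 5.49, Isg15 at 7.72 and Gbp2 at 5.76. Of the 40 panel genes, 35 lay within the range of the 3 samples treated with IFN beta at 1000 IU/ml, 2 above and 2 below. The median panel gene was 0.31 log2 units above the mean of those 3 samples, which pools their replicate numbers. Set against replicate 3 of IFN beta at 1000 IU/ml alone, every panel gene except Bst2 and Cxcl10 was lower on this array. The marked array has no replicate of its own, and the cause of its level was not tested.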

How the results depend on the processing

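The count of 0 genes between IFN beta at 10 IU/ml and untreated cells held in the 12 alternatives with all replicates. Leaving out single replicates gave 0 to 4, the 4 being lower genes without IFN beta replicate 2. IFN beta at 100 against 10 IU/ml gave 5 genes with median scaling, 2 with normexp on median signals (chosen after seeing the data, since the files hold no mean signal and the planned form was not run), 1 with the deposited log2 values, and 0 to 8 without single replicates. Against IFN epsilon at 10 IU/ml the 17 genes were 7 without a filter, 33 with genes above background in all samples, 0 with both marked arrays added, 0 with only the samples of these 2 treatments, with or without the block (added after seeing the data), and 0 to 23 without single replicates. The fit without the replicate block shared 10 of its 14 genes with the 17.

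The antiviral median of 0.453 was 0.29 without the replicate block (also with only the 2 groups), 0.34 with the 2 groups and the block, 0.358 with normexp, 1.367 with both marked arrays, and 0.236 to 0.588 without single replicates. No replicate block reversed Gbp2 (-0.19), Ccl5 (-0.05) and Socs1 (-0.06), with the same values in the 2 groups alone. Ifnar2 reversed with median scaling (-0.02) and with the deposited values (-0.01), and H2-K1 reversed with the deposited values (-0.01). The mean of all probes reversed Nlrc5 (-0.08) and Ifnar1 (-0.05). Fitting the 2 groups with the block, or leaving out untreated replicate 3, reversed Gbp2 (-0.04) and H2-K1 (-0.06). Leaving out IFN beta replicate 1 reversed Ifit3 (-0.05), Iigp1 (-0.36), Cxcl10 (-0.04), Cd274 (-0.29) and Tnfsf10 (-0.14). Leaving out IFN beta replicate 2 reversed Ccl5 (-0.11) and Ifnar2 (-0.07). Without single replicates the highest values of these genes were 1.47 for Ifit3, 2.14 for Iigp1, 1.17 for Cxcl10, 1.78 for Cd274, 1.85 for Tnfsf10, 0.44 for Ccl5, 0.15 for Ifnar2, 0.43 for Gbp2 and 0.21 for H2-K1. The cause was not tested in any of these. The block changed no call against untreated cells at 10 IU/ml. The number of arrays limits the precision, and genes near background have the least.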
